A study of Mus musculus with 24 samples.

Results

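NF-κB is a family of dimeric transcription factors that inflammatory signals such as interleukin-1β (IL-1β) release from their inhibitors. The 10 genes described here encode its 5 subunits (*Nfkb1*, *Nfkb2*, *Rela*, *Rel* and *Relb*), the 3 classical IκB inhibitors *Nfkbia* (IκBα), *Nfkbib* (IκBβ) and *Nfkbie* (IκBε), and 2 nuclear IκB proteins, *Nfkbiz* (IκBζ) and *Bcl3*. They were chosen by name as NF-κB and IκB genes, with earlier results of these data known, and are 10 of the 55471 genes counted. All 10 were among the 17522 genes that passed the filter on low counts. IL-1β receptors signal through the adaptor Myd88 and the Irak kinases to the IκB kinase complex, which marks classical IκB proteins for destruction so that dimers such as p50-RelA enter the nucleus. *Nfkb1* and *Nfkb2* encode precursors that are cut to p50 and p52 and that hold back other subunits while uncut. Nuclear IκB proteins bind p50 or p52 dimers on DNA and act there as co-regulators. Several of these genes are themselves NF-κB targets, a feedback loop that is textbook knowledge in fibroblasts.

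RNA-seq of 3T3 mouse embryonic fibroblasts (MEFs) was counted in 24 libraries of 8 groups with 3 libraries each, and these are the n behind every group value below. The genotypes were wild-type, LKB1 knockout (*Lkb1*-/-), and 2 clones, A1 and A2, that lack both LKB1 and the CREB coactivator CRTC2 (*Lkb1*-/-/*Crtc2*-/-), and each was either left untreated or given IL-1β for 6 hours. The clones were grown from single *Lkb1*-/- cells edited with Cas9 and sorted for the GFP of the editing plasmid, so each double knockout group is 1 clone and shares the loss of LKB1 with its comparison group. No wild-type cells with a *Crtc2* knockout were among the groups. Neither the labels nor the methods say whether the libraries of a group came from separate cultures, and p-values then measure only the spread between these libraries.

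Library depth, as counts on genes, lay between 38842901 and 48594394, and the lowest count of any of the 10 genes in any library was 511. Replicate 1 stood apart in all 8 groups. Chi-square per gene, near 1 where libraries differ by sampling noise alone, was 37.7 to 106.7 between replicate 1 and the others and 7.42 to 18.7 between replicates 2 and 3. Replicate 1 also had the largest share of reads on no gene in each group (29.9% to 34.4%, against 26.7% to 30.04% in the others). Some of the counts without it are given below. *Stk11*, the gene of LKB1, was at 86.0 ± 1.68 CPM (counts scaled to the library size, mean ± SD) in untreated wild-type and 17.3 ± 1.24 CPM in untreated *Lkb1*-/- MEFs. *Crtc2* transcripts fell but remained in the clones, with 81.1 ± 1.80 CPM in untreated *Lkb1*-/- MEFs, 42.9 ± 2.11 CPM in clone A1 and 49.8 ± 0.864 CPM in clone A2, a level that does not check the loss of protein. The 10 fibroblast markers summed to between 5601 and 10388 CPM per library, although *Thy1* was at or near 0 throughout (at most 0.0623 CPM). They stood higher in untreated clone A1 (9404 to 10388 CPM) than in untreated *Lkb1*-/- MEFs (6871 to 7917 CPM), and after IL-1β likewise (8340 to 9388 against 5601 to 7085 CPM). The 5 epithelial markers summed to at most 0.496 CPM. Wild-type libraries held 0.370 to 0.678 CPM of the 4 endothelial markers together and those of the other genotypes 2.06 to 3.85 CPM, mostly *Kdr* (up to 3.70 CPM), with *Pecam1* at most at 0.175 CPM and *Cdh5* at 0.0250 CPM. The sum of the 6 immune markers lay between 2.44 and 5.13 CPM in wild-type, between 4.33 and 6.21 CPM in *Lkb1*-/- MEFs and between 5.89 and 8.96 CPM in the clones. *Cd68* gave up to 6.82 CPM of the latter while *Ptprc* stayed at or under 0.0247 CPM. Fibroblast sums overlapped between wild-type, *Lkb1*-/- and clone A2 cells under each condition, and only clone A1 stood apart. They ran lower after IL-1β in each genotype, without overlap in clone A1. Single fibroblast markers ranged widely over the libraries, *Pdgfra* from 3.71 to 605 CPM and *Col1a2* from 28.5 to 912 CPM. The endothelial and immune sums moved with genotype. The part of all these markers in the differences below was not tested. In bulk RNA, fewer cells that express a gene and less RNA per cell cannot be told apart.

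On GRCm38 the genes lie at chr3:135584655-135691547 (*Nfkb1*), chr7:19606217-19629438 (*Relb*), chr7:19808462-19822770 (*Bcl3*), chr7:28758251-28767512 (*Nfkbib*), chr11:23736847-23770970 (*Rel*), chr12:55489410-55492647 (*Nfkbia*), chr16:55811375-55838899 (*Nfkbiz*), chr17:45555703-45563169 (*Nfkbie*), chr19:5637483-5648130 (*Rela*) and chr19:46304320-46312385 (*Nfkb2*). *Nfkb1* overlaps the gene model Gm43430 on its own strand, and reads shared by both would not be counted, so its counts are uncertain to that extent. *Bcl3*, *Nfkbib* and *Nfkb2* overlap genes on the other strand, which stranded counts keep apart. The upstream sequence of 7 of the 10 genes was read from RefSeq promoter windows on GRCm38, the build of the counts, as the 250 bases before each annotated start. *Nfkb1*, *Relb* and *Nfkbiz* are named only. A match to the κB consensus on either strand was present in 4 of these 7 genes (57.1%), *Nfkbia*, *Nfkb2*, *Rel* and *Nfkbie*, and in 8.23% of the 27025 genes with such a window. The full cAMP response element TGACGTCA, the site through which CREB and its coactivators act, was in none of the 7 and in 1.77% of all genes, and its shorter form TGACG, which the full element contains, was in 3 of the 7 (*Nfkbib*, *Rel* and *Nfkb2*) and in 19.8% of all genes. *Bcl3* and *Rela* held none of these matches. A match describes these windows and is not a bound site. The stretches below show 30 bases around a κB match in each of the 4 genes, because these are the inhibitor, precursor and subunit genes whose responses to IL-1β are compared next. Each is written 5′ to 3′ on the strand of the gene with the match in capitals.
*Nfkbia*, chr12:55492657-55492686, minus strand: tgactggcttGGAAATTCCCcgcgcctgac
*Nfkb2*, chr19:46304688-46304717, plus strand: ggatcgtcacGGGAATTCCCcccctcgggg
*Nfkb2*, chr19:46305695-46305724, plus strand: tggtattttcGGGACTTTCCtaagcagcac
*Rel*, chr11:23771042-23771071, minus strand: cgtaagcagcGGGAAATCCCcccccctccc
*Nfkbie*, chr17:45555584-45555613, plus strand: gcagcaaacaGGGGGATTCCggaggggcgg
The *Nfkbia* match lay 29 to 20 bases before its start and the *Rel* match 92 to 83 bases before. The *Nfkbie* match lay 106 to 97 bases before its start. The *Nfkb2* matches shown lay 39 to 30 and 225 to 216 bases before separate annotated starts.

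The genes differed in how much transcript they gave per length. Per kilobase of exon, *Nfkbia* stood highest in untreated wild-type MEFs (34.7 ± 4.17 CPM per kb), before *Rela* (25.3 ± 0.404) and *Nfkb2* (23.5 ± 1.54). *Nfkb1* (11.2 ± 0.0891 CPM per kb), *Nfkbib* (9.66 ± 0.278), *Rel* (8.92 ± 0.565) and *Relb* (7.98 ± 0.501) followed. *Bcl3* (6.77 ± 1.16 CPM per kb), *Nfkbie* (5.40 ± 0.411) and *Nfkbiz* (5.15 ± 0.572) stood lowest. Lengths were the union of all annotated exons, 12061 bases for *Nfkb1* and 1610 for *Nfkbia*. A union can exceed the length of any single transcript, so this order depends on the annotation. After IL-1β the same cells had 84.1 ± 6.03 CPM per kb of *Nfkbia*, and *Nfkbiz* stood at 25.2 ± 2.08 CPM per kb, close to *Rela* at 26.9 ± 0.394. The levels of single genes below are in CPM and compare libraries for 1 gene only.

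**Figure D1:**
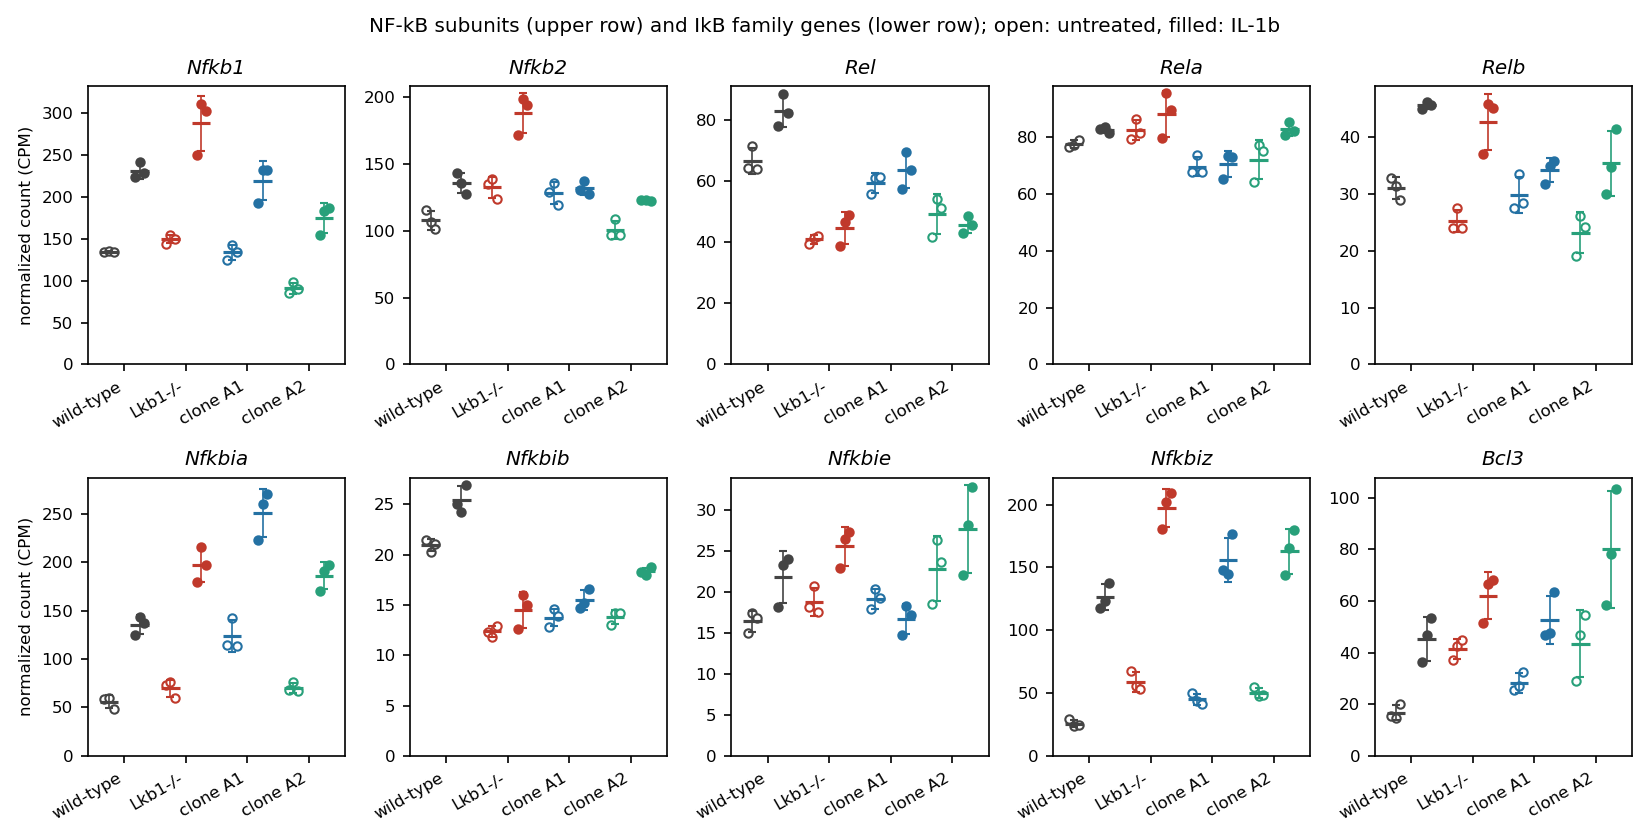
Levels of the 10 genes in CPM (linear axes from 0, one panel a gene) in the 24 libraries, with wild-type in black, Lkb1-/- in red, clone A1 in blue and clone A2 in green. Open circles are untreated and filled circles IL-1β libraries, and the bar with its whiskers is the mean and SD of 3 libraries. *Nfkbiz* rises with IL-1β in every genotype without overlap of the libraries, while *Rela* stays between 64.1 and 95.6 CPM throughout.

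The response to IL-1β was asked within each genotype. *Nfkb1*, *Nfkbia* and *Nfkbiz* rose in all 4 genotypes. *Nfkb2* and *Relb* rose in wild-type, *Lkb1*-/- and clone A2 but were not called in clone A1, and no member was called lower anywhere. In wild-type MEFs 6 of the 10 genes rose, where 1.53% of all genes rose. In *Lkb1*-/- MEFs 5 rose (2.65% of all genes), in clone A1 4 (1.2%) and in clone A2 7 (2.81%). A gene was called when its Benjamini-Hochberg false discovery rate (FDR) over all genes in edgeR's quasi-likelihood test was under 0.05. The untreated and IL-1β libraries did not overlap for all 10 members in wild-type MEFs (18.5% of all genes), 7 in *Lkb1*-/- MEFs (20.3%), 5 in clone A1 (17.2%) and 8 in clone A2 (15.4%).

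*Nfkbiz*, which encodes the inducible nuclear cofactor IκBζ, changed most. It read 29.1, 23.6 and 24.8 CPM in untreated and 117, 124 and 138 CPM in IL-1β-treated wild-type MEFs, 4.88-fold higher (log2 fold change 2.29, SE 0.118, FDR 4.4e-11). In *Lkb1*-/- MEFs it went from 67.9, 55.7 and 52.9 CPM to 181, 202 and 209 CPM (log2 fold change 1.75, SE 0.114, FDR 1.7e-09). Every treated library lay above every untreated library of its genotype, in the clones as well. Clone A1 went from 50.2, 43.6 and 41.4 CPM to 148, 145 and 176 CPM, with a log2 fold change of 1.79 (SE 0.115, FDR 2e-09), and clone A2 from 54.7, 47.5 and 48.3 CPM to 144, 166 and 179 CPM, with 1.70 (SE 0.114, FDR 2.8e-09).

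*Nfkbia* encodes IκBα, the inhibitor that is destroyed and remade in each round of NF-κB signaling. Its levels were 59.3, 60.2 and 48.1 CPM in untreated and 125, 144 and 138 CPM in treated wild-type MEFs (log2 fold change 1.28, SE 0.115, FDR 3.7e-07). *Lkb1*-/- MEFs had 72.7, 76.7 and 59.4 CPM untreated and 179.6, 216 and 197 CPM treated (log2 fold change 1.504, SE 0.115, FDR 1.8e-08). No treated library overlapped an untreated one in these or the double knockout cells. Clone A1 began at 115, 142 and 113 CPM, overlapping treated wild-type cells, and reached 223, 260.0 and 269.9 CPM, so that its fold was the smallest of the 4 (log2 fold change 1.02, SE 0.113, FDR 8.6e-06). Clone A2 went from 68.4, 76.0 and 66.7 CPM to 170.2, 191 and 197 CPM (log2 fold change 1.40, SE 0.114, FDR 5.4e-08).

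*Nfkb1*, the p105/p50 precursor gene, read 134, 136 and 134 CPM untreated and 224, 242 and 229 CPM treated in wild-type MEFs (log2 fold change 0.78, SE 0.0897, FDR 1.3e-05). The *Lkb1*-/- values were 144, 155 and 150.1 CPM and 251, 311 and 303 CPM (log2 fold change 0.94, SE 0.0898, FDR 5e-07). Its libraries separated by treatment in each genotype, and the clones rose from lower or similar levels. Clone A1 had 125, 142 and 135 CPM and 192, 233 and 233 CPM (log2 fold change 0.71, SE 0.0896, FDR 4.8e-05), and clone A2 85.3, 98.2 and 90.2 CPM and 154, 184 and 187 CPM (log2 fold change 0.94, SE 0.0901, FDR 5.7e-07).

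*Nfkb2* and *Relb* encode p100/p52 and its partner of the non-canonical pathway. *Nfkb2* went from 115, 106 and 101 CPM to 143, 136 and 127 CPM in wild-type MEFs (log2 fold change 0.33, SE 0.0709, FDR 0.012) and from 134, 139 and 123 CPM to 171, 198 and 194 CPM in *Lkb1*-/- MEFs (log2 fold change 0.51, SE 0.0707, FDR 7.6e-05). In clone A1 the untreated libraries at 129, 136 and 119 CPM overlapped the treated ones at 130.3, 137 and 127 CPM (log2 fold change 0.04, SE 0.0707, FDR 0.92). Clone A2 separated again, with 96.9, 109 and 96.4 CPM untreated and 123, 123 and 122 CPM treated (log2 fold change 0.28, SE 0.0708, FDR 0.018). The wild-type call of *Nfkb2* was lost without treated replicate 1 (FDR 0.08), untreated replicate 2 (0.069) or untreated replicate 3 (0.087), and that of clone A2 without untreated replicate 3 (0.071) or when those 2 groups were fitted alone (0.11).

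*Relb* read 32.7, 31.4 and 28.9 CPM untreated and 44.9, 46.2 and 45.5 CPM treated in wild-type MEFs (log2 fold change 0.55, SE 0.118, FDR 0.011), a call lost without untreated replicate 2 (FDR 0.053) or 3 (0.054). In *Lkb1*-/- MEFs it went from 24.02, 27.5 and 24.05 CPM to 37.0, 45.8 and 45.1 CPM (log2 fold change 0.76, SE 0.119, FDR 0.00028). Clone A2 went from 19.1, 26.1 and 24.2 CPM to 29.9, 34.6 and 41.4 CPM (log2 fold change 0.61, SE 0.119, FDR 0.0024), a rise not called when those 2 groups were fitted alone (FDR 0.08). In clone A1, where untreated libraries at 27.4, 33.4 and 28.4 CPM overlapped treated ones at 31.7, 34.8 and 35.8 CPM, it was not called (log2 fold change 0.20, SE 0.119, FDR 0.63).

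*Bcl3*, the nuclear partner of p50 and p52 dimers, rose most in wild-type MEFs, from 15.6, 14.7 and 20 CPM to 36.3, 46.7 and 53.2 CPM (log2 fold change 1.44, SE 0.222, FDR 0.00043). Clone A1 read 25.4, 27.0 and 32.7 CPM and 47.0, 47.6 and 63.5 CPM (log2 fold change 0.89, SE 0.217, FDR 0.033), and clone A2 29.2, 46.7 and 54.5 CPM and 58.4, 78.2 and 103 CPM (log2 fold change 0.88, SE 0.214, FDR 0.015). All of these groups separated by treatment. In *Lkb1*-/- MEFs the untreated level was already 37.1, 42.4 and 44.9 CPM, and the step to 51.5, 66.7 and 68.1 CPM did not pass the test (log2 fold change 0.58, SE 0.214, FDR 0.16) although the groups did not overlap. With the replicate number as a block it passed (FDR 0.00029), as it did in 4 of 16 alternatives in all, which are other settings or omissions of libraries. The call in clone A1 was lost without any 1 of its 6 libraries, with FDR between 0.053 and 0.14 (untreated replicates 1, 2 and 3 gave 0.14, 0.14 and 0.053, and treated replicates 1, 2 and 3 0.053, 0.059 and 0.13). That in clone A2 was lost without treated replicate 3 (0.063) and when those 2 groups were fitted alone (0.16).

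*Rela*, the activating subunit of the canonical dimer, was not called in any genotype, with log2 fold changes of 0.09 in wild-type, 0.10 in *Lkb1*-/-, 0.02 in clone A1 and 0.20 in clone A2 (SE between 0.0708 and 0.0711). *Rel*, the lymphoid-rich subunit c-Rel, had 0.32 in wild-type MEFs, where 64.3, 71.5 and 64.0 CPM untreated and 78.0, 88.5 and 82.1 CPM treated did not overlap, and 0.13, 0.10 and -0.10 in the other genotypes. The classical inhibitors *Nfkbib* and *Nfkbie* had smaller fold changes than *Nfkbia* in each genotype. In edgeR's test with its main settings *Nfkbib* passed in clone A2, from 13.1, 14.2 and 14.2 CPM to 18.3, 18.0 and 18.8 CPM (log2 fold change 0.41, SE 0.0819, FDR 0.0033), and when those 2 groups were fitted alone it did not (FDR 0.056). *Nfkbie* had log2 fold changes of 0.41 in wild-type, 0.44 in *Lkb1*-/- and 0.28 in clone A2, and -0.20 in clone A1, where 18.0, 20.4 and 19.3 CPM untreated overlapped 14.7, 18.3 and 17.2 CPM treated.

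The replicate number as a block moved several of these values over the threshold. In wild-type MEFs it called *Rel* (FDR 0.00043), *Nfkbib* (0.012) and *Nfkbie* (0.0029) higher as well, where it called 9.3% of all genes. In *Lkb1*-/- MEFs it called *Nfkbib* (0.035) and *Nfkbie* (0.00066) beside *Bcl3*, so that 8 of the 10 genes rose in place of 5, where this fit called 14.8% of all genes in either direction. In clone A2 it added *Rela* (0.0047) and *Nfkbie* (0.021), with 17.9% of all genes called, and in clone A1 it added none, with 9.61%. Apart from *Nfkbie* in clone A2, each of these gains was also called in some setting without the block. With replicates 2 and 3 of every group alone, chosen after seeing the data, 9 genes rose in wild-type MEFs (5.28% of all genes called), 8 in *Lkb1*-/- MEFs (8.79%), 4 in clone A1 (5.15%) and 7 in clone A2 (14.6%). Upper quartile scaling and a stricter filter (10 or more counts in each library) also called *Rel* (FDR 0.018 and 0.036) and *Nfkbib* (0.028 and 0.036) in wild-type MEFs, *Nfkbib* (0.039 and 0.036) and *Nfkbie* (0.024 and 0.035) in *Lkb1*-/- MEFs and *Rela* (0.019 and 0.013) in clone A2.

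**Figure D2:**
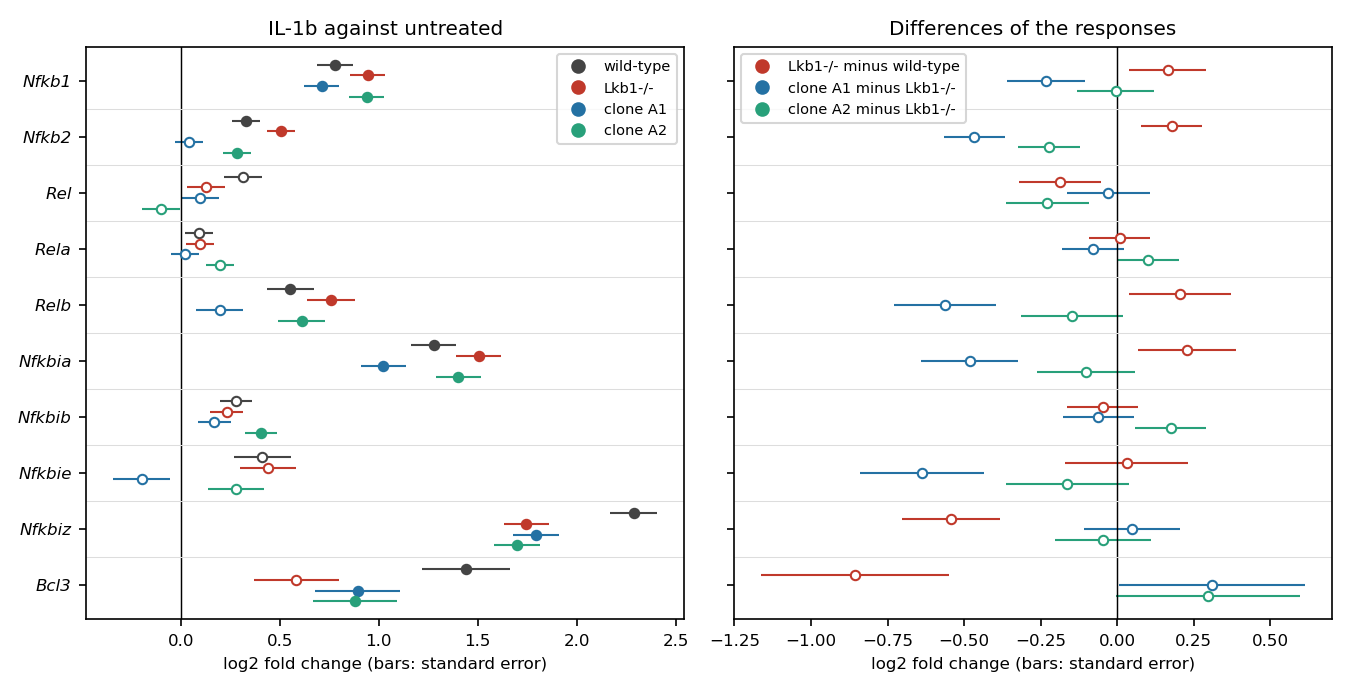
Left, log2 fold change of IL-1β against untreated for each gene and genotype; right, differences between these responses. Bars are standard errors, filled points passed the FDR threshold of 0.05 and open points did not. On the left Nfkbiz lies farthest right, at 2.29 in wild-type, and on the right all points are open.

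Whether the genotypes responded differently was tested as the difference between responses. None of the 10 genes passed in any of the 3 differences in edgeR's test with its main settings, where 0.245% of all genes passed for *Lkb1*-/- minus wild-type, 0.0285% for clone A1 minus *Lkb1*-/- and 0 for clone A2 minus *Lkb1*-/-. At an unadjusted p under 0.05 these tests held 985, 433 and 388 of the 17522 genes. DESeq2 called 1 member, *Nfkb2*, in the second difference (FDR 0.0063, with 0.0871% of all genes called) and 0 in the others (0.878% and 0.0966%). With the replicate block set within each genotype, an alternative chosen after seeing the data, 2 members had a smaller response for the first difference (5.72% of all genes called), 4 for the second (1.52%) and 0 for the third (183 of 17522 genes). Without a filter on low counts and without a block, the same 2 and 4 members had smaller responses (0.943% and 0.383% of all genes called), and 0 passed in the third (0.185%). The largest differences were those of *Bcl3* and *Nfkbiz* between *Lkb1*-/- and wild-type MEFs and of *Nfkbie*, *Relb*, *Nfkbia* and *Nfkb2* between clone A1 and *Lkb1*-/- MEFs.

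For *Bcl3* the response of *Lkb1*-/- MEFs was below that of wild-type MEFs, a log2 difference of -0.86 (SE 0.306, FDR 0.59), and with the replicate block it passed (FDR 0.0025, 1.77% of all genes called), as it did without a filter on low counts (FDR 2.4e-07). The log2 difference without the filter was no larger, at -0.82, and why its FDR was lower was not tested. Taken by replicate number, the log2 ratios of treated to untreated were 1.22, 1.67 and 1.41 in wild-type and 0.47, 0.65 and 0.60 in *Lkb1*-/- MEFs, without overlap. The *Nfkbiz* response differed by -0.54 (SE 0.159, FDR 0.28), with ratios of 2.01, 2.39 and 2.47 against 1.41, 1.86 and 1.98, and did not pass with that block (FDR 0.062) but did without the filter (FDR 0.0028). Both genes began higher in *Lkb1*-/- MEFs. The treated level of *Nfkbiz* was also higher there, while the treated *Bcl3* libraries of the 2 genotypes overlapped.

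In clone A1 the *Nfkb2* response was below that of *Lkb1*-/- MEFs by a log2 difference of -0.47 (SE 0.1, FDR 0.39), which passed with the replicate block (FDR 0.0085, 0.205% of all genes called) and without the filter (FDR 0.025). By replicate number its log2 ratios were 0.02, 0.01 and 0.09 in clone A1 and 0.35, 0.52 and 0.65 in *Lkb1*-/- MEFs, which do not overlap. *Nfkbie* differed by -0.64 (SE 0.202, FDR 1, 0.021 with the block and 0.026 without the filter), with ratios of -0.29, -0.15 and -0.16 against 0.34, 0.35 and 0.64. *Relb* (-0.56, SE 0.168) and *Nfkbia* (-0.48, SE 0.159) had an FDR of 1 and did not pass with the block (FDR 0.082 and 0.11), but both passed without the filter (FDR 0.027 and 0.016). Differences of clone A2 from *Lkb1*-/- MEFs ran from -0.23 (*Rel*) to 0.30 (*Bcl3*).

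*Lkb1*-/- and wild-type MEFs were compared without and with IL-1β. The paper lists them as separate cell lines, so cell line and loss of LKB1 cannot be told apart. In untreated cells *Nfkbiz*, *Bcl3*, *Nfkb2* and *Nfkbia* were higher and *Nfkbib*, *Rel* and *Relb* lower in *Lkb1*-/- than in wild-type MEFs, 7 of 10 genes where 55.9% of all genes were called. The libraries did not overlap for 9 of the 10 (64.8% of all genes). After IL-1β 4 genes were higher (*Nfkb1*, *Nfkb2*, *Nfkbia* and *Nfkbiz*) and 2 lower (*Rel* and *Nfkbib*), 6 of 10 against 57.4% of all genes, and 6 did not overlap (62.6%). These shares are near the background. The 2 comparisons use different libraries and are set side by side.

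Of the nuclear IκB genes, *Nfkbiz* was 2.28-fold higher in untreated *Lkb1*-/- MEFs (log2 fold change 1.19, SE 0.115, FDR 1.4e-08) and 1.56-fold higher after IL-1β (log2 fold change 0.64, SE 0.111, FDR 3.9e-05). Its untreated *Lkb1*-/- libraries (52.9 to 67.9 CPM) lay above the untreated wild-type ones (23.6 to 29.1 CPM) and below all treated ones. *Bcl3* was 2.48-fold higher untreated (log2 fold change 1.31, SE 0.221, FDR 3.2e-05), with 37.1 to 44.9 CPM against 14.7 to 20 CPM, and after IL-1β it was not called (log2 fold change 0.45, SE 0.214, FDR 0.077). That comparison passed in 8 of 16 alternatives, with the replicate block (FDR 0.00039), in DESeq2 (0.046), with upper quartile scaling (0.015), without a filter (2.1e-06), with at least 10 counts in every library (0.029), when those 2 groups were fitted alone (0.018), with replicates 2 and 3 alone (0.034) and without treated *Lkb1*-/- replicate 1 (0.044).

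The classical inhibitors went in opposite directions. *Nfkbib*, the IκBβ gene, was lower in *Lkb1*-/- MEFs, with 21.5, 20.3 and 21.0 CPM in wild-type and 12.3, 11.9 and 12.9 CPM in *Lkb1*-/- cells untreated (log2 fold change -0.76, SE 0.0824, FDR 8.1e-08) and 25.1, 24.3 and 26.9 CPM against 12.6, 16.0 and 14.99 CPM treated (log2 fold change -0.81, SE 0.0819, FDR 2.9e-08). Neither pair of groups overlapped. *Nfkbia* was higher after IL-1β (log2 fold change 0.54, SE 0.112, FDR 0.00028). Untreated it was called higher as well (log2 fold change 0.32, SE 0.114, FDR 0.022) but the libraries overlapped, and the call was lost without *Lkb1*-/- replicate 1 (FDR 0.15) or 2 (0.12), without wild-type replicate 3 (0.26) and with unstranded counts (0.085). *Nfkbie* was not called in either comparison (0.20 and 0.23), and was called higher in both with the replicate block (FDR 0.044 and 0.018), in 1 and 3 of 16 alternatives in all.

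Among the subunits *Rel* was lower in *Lkb1*-/- MEFs, with 64.3, 71.5 and 64.0 CPM in wild-type against 39.3, 41.3 and 41.9 CPM untreated (log2 fold change -0.70, SE 0.0956, FDR 1.9e-06) and 78.0, 88.5 and 82.1 CPM against 38.8, 46.5 and 48.7 CPM treated (log2 fold change -0.89, SE 0.0956, FDR 6.5e-08). The groups did not overlap. *Nfkb2* was higher under both conditions (log2 fold change 0.30, SE 0.0708, FDR 0.0012 untreated, and log2 fold change 0.47, SE 0.0707, FDR 6.8e-06 treated). *Nfkb1* was higher after IL-1β (log2 fold change 0.32, SE 0.0890, FDR 0.0044) and had 0.15 untreated (SE 0.0893, FDR 0.16, 0.018 with the replicate block, and under 0.05 in 5 of 16 alternatives). *Relb* was at -0.10 after IL-1β and lower in the untreated comparison (log2 fold change -0.30, SE 0.119, FDR 0.037), and this call was lost without wild-type replicate 1 (FDR 0.12) or 2 (0.084), with replicates 2 and 3 alone (0.059) and with upper quartile scaling (0.058). *Rela* had log2 fold changes of 0.09 and 0.09 and was not called, but with upper quartile scaling it was called higher in both (FDR 0.01 and 0.0032), and after IL-1β also with at least 10 counts in every library (0.012) and with replicates 2 and 3 alone (0.013).

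**Figure D3:**
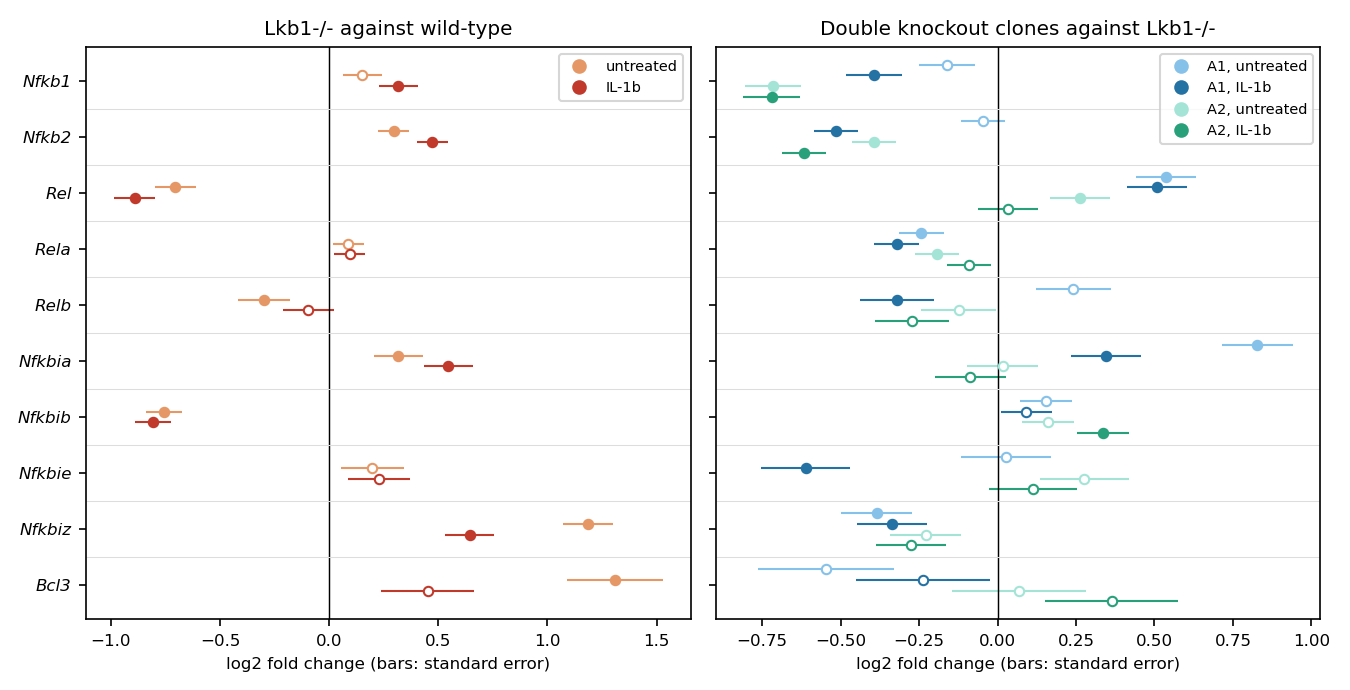
Log2 fold changes between genotypes for each gene, *Lkb1*-/- against wild-type on the left and each double knockout clone against *Lkb1*-/- on the right, in untreated (lighter) and IL-1β-treated (darker) cells. Bars are standard errors and filled points passed the FDR threshold of 0.05. *Rel* and *Nfkbib* lie left of 0 in the first panel, and *Nfkb1* and *Nfkb2* lie left of 0 for both clones in the second.

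Each double knockout clone was then compared with *Lkb1*-/- MEFs, the cells it was made from. After IL-1β *Nfkb1* and *Nfkb2*, the precursor subunits, were lower in both clones than in *Lkb1*-/- MEFs. The clones were also compared with each other, and differed in 6 members untreated (32.5% of all genes called) and 7 after IL-1β (30.7%). In clone A1 2 members were called higher and 2 lower untreated (35.3% of all genes called) and 2 higher and 6 lower after IL-1β (36.7%). In clone A2 1 was higher and 3 lower untreated (32.3%) and 1 higher and 2 lower after IL-1β (32.8%). The libraries did not overlap for 6 members in clone A1 untreated (49.4% of all genes) and 8 after IL-1β (44.9%), and for 4 in clone A2 under either condition (40.7% and 39.4%). With the replicate block the untreated count in clone A1 was 7 (48.1% of all genes) and the treated count in clone A2 was 6 (46.6%). With replicates 2 and 3 alone both counts were 7 (40.2% and 38.7%).

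*Nfkb1* after IL-1β had a log2 fold change of -0.39 in clone A1 (SE 0.0891, FDR 0.0014) and -0.72 in clone A2 (SE 0.0894, FDR 3.1e-06), with all 3 libraries of each clone under those of *Lkb1*-/- MEFs. Untreated it was lower in clone A2 (log2 fold change -0.72, SE 0.0899, FDR 3.8e-06) and had -0.16 in clone A1 (FDR 0.18, 0.015 with the replicate block, and under 0.05 in 3 of 16 alternatives). *Nfkb2* followed the same pattern, with -0.51 in clone A1 (FDR 8e-06) and -0.62 in clone A2 (FDR 1.1e-06) after IL-1β. Untreated it was lower in clone A2 (-0.39, FDR 0.00021) and at -0.05 in clone A1 (FDR 0.66).

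Clone A1 had more *Nfkbia* than *Lkb1*-/- MEFs, 1.77-fold untreated (log2 fold change 0.83, SE 0.113, FDR 8e-06) and 1.27-fold after IL-1β (log2 fold change 0.35, SE 0.112, FDR 0.019). The treated call was lost without clone A1 replicate 2 (FDR 0.065) or 3 (0.055) or *Lkb1*-/- replicate 1 (0.09). In clone A2 *Nfkbia* was at 0.02 and -0.09 and was not called. The clones differed in this gene directly, with clone A2 lower than clone A1 untreated (log2 fold change -0.81, SE 0.113, FDR 1.2e-05) and treated (log2 fold change -0.43, SE 0.112, FDR 0.0053).

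*Rel* was higher in clone A1 than in *Lkb1*-/- MEFs untreated (log2 fold change 0.54, SE 0.0956, FDR 0.00015) and after IL-1β (log2 fold change 0.51, SE 0.0954, FDR 0.00026). In clone A2 it was called higher untreated (log2 fold change 0.26, SE 0.0955, FDR 0.039) with overlapping libraries, a call lost without clone replicate 2 (FDR 0.11) or 3 (0.058), without *Lkb1*-/- replicate 1 (0.06) or 2 (0.082) and when those 2 groups were fitted alone (0.066). After IL-1β it was at 0.03. Treated clone A2 lay below treated clone A1 (log2 fold change -0.47, SE 0.0953, FDR 0.00063). Both clones stayed under the treated wild-type level of 78.0 to 88.5 CPM, at 57.5 to 69.4 CPM in clone A1 and 43.1 to 48.5 CPM in clone A2.

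*Rela* was lower in clone A1 after IL-1β (log2 fold change -0.32, SE 0.0710, FDR 0.0012) and untreated (log2 fold change -0.24, SE 0.0710, FDR 0.01), the latter lost without *Lkb1*-/- replicate 2 (FDR 0.058). In untreated clone A2 its call (log2 fold change -0.19, SE 0.0709, FDR 0.042) was lost without clone replicate 1 or 3 (FDR 0.22 and 0.052), without *Lkb1*-/- replicate 1, 2 or 3 (0.055, 0.16 and 0.061), when those 2 groups were fitted alone (0.067), without a filter on low counts (0.069) and with unstranded counts (0.096). *Relb* was lower in treated clone A1 (log2 fold change -0.32, SE 0.118, FDR 0.038), a call lost without clone replicate 1, 2 or 3 (FDR 0.13, 0.072 and 0.052), without *Lkb1*-/- replicate 2 or 3 (0.14 and 0.11) and with unstranded counts (0.072). In treated clone A2 it was at -0.27 (FDR 0.085, 0.015 with the replicate block, and under 0.05 in 7 of 16 alternatives). Untreated clone A1 had 0.24 (FDR 0.13, and 0.035 with the block).

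*Nfkbie*, the gene of IκBε, stood apart in treated clone A1. It read 22.9, 26.5 and 27.4 CPM in *Lkb1*-/- MEFs, 14.7, 18.3 and 17.2 CPM in clone A1 and 22.1, 28.2 and 32.8 CPM in clone A2, all after IL-1β. Clone A1 lay below both without overlap, against *Lkb1*-/- MEFs with -0.61 (SE 0.143, FDR 0.0019), and clone A2 was higher than clone A1 (log2 fold change 0.73, SE 0.143, FDR 0.00053). Clone A2 was not called against *Lkb1*-/- MEFs (0.11), and untreated it had 0.28 (FDR 0.15, 0.012 with the replicate block, and 0.026 without its replicate 1). *Nfkbib* was higher in treated clone A2 (log2 fold change 0.34, SE 0.0819, FDR 0.0031), but not when those 2 groups were fitted alone (FDR 0.055), and the clones still lay under wild-type MEFs in every library, at most 18.8 CPM against at least 20.3 CPM.

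*Nfkbiz* was lower in clone A1 than in *Lkb1*-/- MEFs untreated (log2 fold change -0.39, SE 0.113, FDR 0.01) and after IL-1β (log2 fold change -0.34, SE 0.110, FDR 0.021). The untreated call was lost without clone replicate 3 (FDR 0.057) or *Lkb1*-/- replicate 1 (0.11), and the treated one without clone replicate 1 or 2 (0.078 and 0.097) or *Lkb1*-/- replicate 2 or 3 (0.061 and 0.086). Clone A2 had -0.23 and -0.28, neither called, the second with an FDR of 0.025 under the replicate block and under 0.05 in 8 of 16 alternatives, and the first with 0.022 without a filter. Both clones stayed above wild-type MEFs, at 41.4 to 50.2 CPM and 47.5 to 54.7 CPM untreated against 23.6 to 29.1 CPM. *Bcl3* was not called in either clone against *Lkb1*-/- MEFs. In untreated clone A1 it was at -0.55 (FDR 0.055), which passed in 9 of 16 alternatives, with an FDR of 0.00013 under the replicate block and 0.03 in DESeq2. In treated clone A2 it was at 0.36 (FDR 0.21, 0.0074 under the block and 0.04 without clone replicate 1), and it passed in 4 of 16 alternatives.

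Of the members called between the clones, 1 was higher in clone A2 and 5 lower untreated, and 4 were higher and 3 lower after IL-1β. The libraries did not overlap for 5 and 7 members (39.9% and 38.7% of all genes). *Nfkb1* was lower in clone A2 under both conditions (-0.55, FDR 6.3e-05 untreated, and -0.33, FDR 0.0078 treated), and *Nfkb2* untreated (-0.35, FDR 0.00069). *Rela* (0.23, FDR 0.017) and *Nfkbib* (0.24, FDR 0.028) were higher in treated clone A2, and *Bcl3* was called higher under both conditions with overlapping libraries (0.62, FDR 0.033, and 0.60, FDR 0.037). Untreated *Rel* (-0.27, FDR 0.032) and *Relb* (-0.36, FDR 0.023) were lower in clone A2. With the replicate block untreated *Nfkbie* was called higher in clone A2 as well (FDR 0.022), one of 3 of 16 alternatives that called it.

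Several of these calls between the clones rested on single libraries, which are given with the FDR without them. Untreated *Rel* was lost without A2 replicate 1 (0.13), A1 replicate 2 (0.093) or A1 replicate 3 (0.097), untreated *Relb* without A2 replicate 1 (0.096) or A1 replicate 2 (0.13), and untreated *Bcl3* without A1 replicate 1 (0.12), A1 replicate 2 (0.099), A2 replicate 2 (0.083) or A2 replicate 3 (0.16). After IL-1β *Bcl3* was lost without A1 replicate 1 (0.12), A1 replicate 2 (0.13), A2 replicate 2 (0.056) or A2 replicate 3 (0.21). Treated *Nfkbib* was lost without A1 replicate 1 (0.11), A1 replicate 2 (0.09) or A2 replicate 3 (0.063) and with replicates 2 and 3 alone (0.057), and treated *Rela* without A1 replicate 1 (0.1). Without a filter on low counts neither treated *Nfkbib* (FDR 0.26) nor treated *Rela* (0.073) passed. With the 2 groups fitted alone the untreated calls of *Bcl3*, *Rel* and *Relb* had FDR values of 0.052, 0.056 and 0.056, and the treated calls of *Bcl3* and *Nfkbib* 0.053 and 0.07.

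The balance of inhibitor to subunit transcripts was described as the summed CPM per kb of *Nfkbia*, *Nfkbib* and *Nfkbie* over that of the 5 subunits, with no test. Its lengths are unions of exons, so the ratio depends on the annotation. *Nfkb1* and *Nfkb2*, whose uncut precursors also hold back other subunits, were counted as subunits only. The ratio is one of RNA and does not measure protein. It was 0.647 ± 0.0399 in untreated and 1.05 ± 0.0738 in treated wild-type MEFs (mean ± SD). In *Lkb1*-/- MEFs it was 0.688 ± 0.0536 and 1.25 ± 0.0368. Both clones lay higher than *Lkb1*-/- MEFs under each condition, clone A1 at 1.15 ± 0.0745 and 1.93 ± 0.103 and clone A2 at 0.880 ± 0.0361 and 1.59 ± 0.0616. *Nfkbia* made up between 69.6% and 92.5% of the inhibitor sum on average in each group. Untreated, the inhibitor sum was 55.1 CPM per kb in *Lkb1*-/- MEFs, 89.4 in clone A1 and 57.6 in clone A2, and the subunit sum 80.0, 77.3 and 65.5 CPM per kb. After IL-1β the inhibitor sum was 138, 168 and 133 CPM per kb and the subunit sum 111, 87.1 and 83.4. Clone A1 thus had the larger inhibitor sum under both conditions, and the mean subunit sum was lower than in *Lkb1*-/- MEFs in both clones under both, by least in untreated clone A1, where the libraries overlapped.

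**Figure D4:**
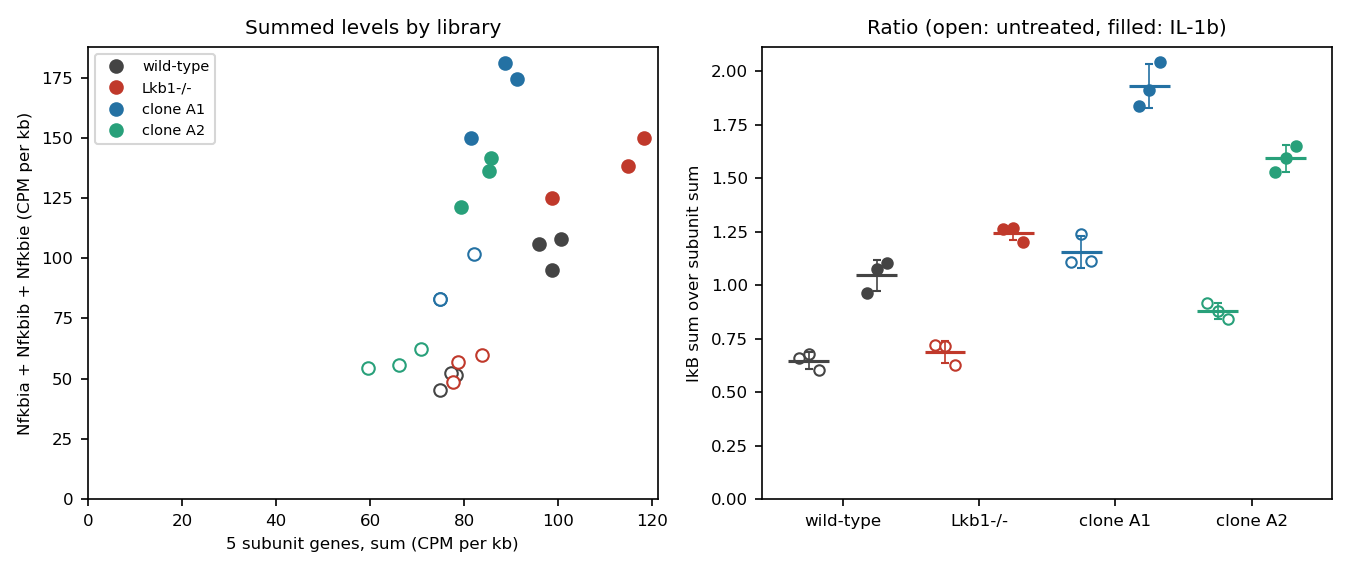
Left, summed level of Nfkbia, Nfkbib and Nfkbie against that of the 5 subunit genes in each of the 24 libraries (CPM per kb, axes from 0; open untreated, filled IL-1β). Right, their ratio by genotype with the mean and SD of 3 libraries. Treated clone A1 has the highest ratios, 1.93 ± 0.103, and untreated wild-type the lowest, 0.647 ± 0.0399.

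The other genes of the pathway were taken from a list of 31 (kinases, adaptors, ubiquitin enzymes and their regulators, and *Nfkbid*, a further nuclear IκB gene). IL-1β called 4 of them higher and 0 lower in wild-type MEFs, 5 and 1 in *Lkb1*-/- MEFs, 2 and 1 in clone A1, and 5 and 1 in clone A2, where 1.53%, 2.65%, 1.2% and 2.81% of all genes were higher, with medians of 0.03, 0.03, 0.01 and -0.01 on the log2 scale beside 0.00, -0.01, -0.01 and -0.02 over all genes tested. With the replicate block 7, 6, 5 and 10 were called, beside 9.3%, 14.8%, 9.61% and 17.9% of all genes. The genes that rose in *Lkb1*-/- MEFs included feedback regulators. *Tnfaip3*, the ubiquitin-editing enzyme A20 that limits NF-κB signaling, rose in every genotype, in *Lkb1*-/- MEFs from 28.4, 27.1 and 21.3 CPM to 76.8, 87.4 and 93.4 CPM (log2 fold change 1.75, SE 0.133, FDR 1.8e-08). *Birc3*, the ubiquitin ligase cIAP2, rose there from 15.5, 17.4 and 17.4 CPM to 23.7, 33.1 and 34.4 CPM (log2 fold change 0.86, SE 0.169, FDR 0.003), and *Irak3*, the inhibitory kinase-like protein IRAK-M, from 5.89, 5.73 and 6.93 CPM to 11.5, 15.7 and 17.6 CPM (log2 fold change 1.27, SE 0.251, FDR 0.0031).

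*Nfkbid*, named after its values were seen, was scarce, at 0.0893, 0.0921 and 0.0782 CPM in untreated and 0.469, 0.490 and 0.388 CPM in treated wild-type MEFs, where it was called higher (FDR 0.022). It was at most 0.0960 CPM in *Lkb1*-/- MEFs and 0.0425 CPM in the clones.

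Without IL-1β 9 of these 31 genes were higher and 12 lower in *Lkb1*-/- than in wild-type MEFs (median -0.15, over all genes 0.04), where 30.1% of all genes were higher and 25.8% lower. *Irak3* was near its detection limit in wild-type cells, at 0.0670, 0 and 0.0782 CPM untreated and 0, 0.0233 and 0.0517 CPM treated. *Ube2n*, the Ubc13 enzyme that builds K63-linked ubiquitin chains, was at 92.8, 89.8 and 90.8 CPM in wild-type and 49.8, 48.5 and 48.2 CPM in *Lkb1*-/- cells (log2 fold change -0.90, SE 0.0466, FDR 6.5e-13), and *Birc3* was lower as well (log2 fold change -0.88, SE 0.169, FDR 0.00013). Untreated clone A1 held more *Tnfaip3* than *Lkb1*-/- MEFs, 60.0, 71.9 and 53.4 CPM (log2 fold change 1.27, SE 0.132, FDR 2.4e-07), as it held more *Nfkbia*, and clone A2 did not pass (-0.22, FDR 0.21). The *Irak3* libraries of clone A1 overlapped between untreated and treated cells, at 2.49, 3.55 and 3.75 CPM and 3.04, 3.57 and 3.50 CPM.

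Of 25 NF-κB target genes IL-1β called 20 higher in wild-type, 20 in *Lkb1*-/-, 17 in clone A1 and 18 in clone A2 and none lower, beside 1.53%, 2.65%, 1.2% and 2.81% of all genes higher, with median log2 fold changes of 2.08, 2.08, 1.33 and 1.80 with a gene set to its bound where no library of a group had over 3 counts of it. Between *Lkb1*-/- and wild-type MEFs 15 were higher and 3 lower untreated (30.1% and 25.8% of all genes) and 19 and 4 after IL-1β (30.2% and 27.1%). *Nos2*, the inducible nitric oxide synthase, had 0 counts in wild-type libraries without IL-1β and 0.0226, 0.0696 and 0.0714 CPM in untreated *Lkb1*-/- ones, and after IL-1β 7.80, 18.6 and 26.6 CPM and 60.0, 122 and 126 CPM. *Lcn2*, the siderophore-binding lipocalin-2 that is a known IκBζ target, had 0 counts in untreated wild-type MEFs and 0.679, 0.928 and 1.10 CPM in *Lkb1*-/- MEFs, and 1.11, 5.63 and 5.25 CPM against 33.7, 66.8 and 74.6 CPM after IL-1β. Treated libraries of clone A1 had 9.42, 10.5 and 11.3 CPM of it and those of clone A2 33.6, 85.7 and 139.6 CPM.

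The acute-phase gene *Saa3* had 0.741, 4.65 and 3.41 CPM in treated wild-type and 70.3, 178 and 166 CPM in treated *Lkb1*-/- MEFs, 5.15, 5.85 and 11.6 CPM in clone A1 and 42.8, 155 and 277 CPM in clone A2. The chemokine gene *Cxcl2* had 0 counts in untreated wild-type and 1.49, 1.37 and 0.714 CPM in untreated *Lkb1*-/- MEFs. *Ccl20*, another chemokine gene, went the other way, with 1.21, 1.08 and 0.5999 CPM untreated and 61.2, 62.2 and 60.7 CPM treated in wild-type cells and 0 counts in all 6 *Lkb1*-/- libraries.

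For each member the gene with the most similar log2 CPM over the 24 libraries was found among 9359 other genes with a mean log2 CPM above 3, by Pearson's r and as a description, since the libraries share genotypes and treatment. *Nfkbia* was most like *Tnfaip3* (0.978), the A20 gene named above, and *Nfkbiz* most like *Slc11a2* (0.977). *Nfkb1* was nearest to *Cebpd* (0.93), *Nfkb2* to *Fosl1* (0.901) and *Relb* to *Micall2* (0.904). *Rel* was nearest to *Dcaf1* (0.965), *Rela* to *Ppard* (0.886), *Nfkbib* to *Slc35c1* (0.964), *Nfkbie* to *Pnrc1* (0.835) and *Bcl3* to *Ggta1* (0.951).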

How the data were processed

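Gene expression was measured by RNA-seq in 24 libraries of 3T3 MEFs. The authors trimmed read pairs with Trim Galore 0.6.0, aligned them with STAR 2.7.8a to GRCm38 (GENCODE genes), and deposited the per-gene counts of STAR for each strand setting, whole numbers that are not normalized. The labels name a SMARTER mRNA-Seq kit and the study's methods a KAPA HyperPrep kit with rRNA depletion, so the library kit is not settled. The second strand setting was used, which held 95.5% to 96.0% of the stranded counts. The 4 lines that name no gene held 26.7% to 34.4% of a library and were left out. Symbols and exon lengths came from GENCODE M21, which gave a symbol for 55230 genes and none for 241.

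edgeR 4.0.16 in R 4.3.3 was fitted to all 24 libraries with 1 coefficient a group, the quasi-likelihood design of the study's methods. The filter, scaling and test version were chosen here: filterByExpr by group (minimum count 10, minimum total 15) left 17522 genes, TMM factors ran from 0.922 to 1.09, and the older (legacy) quasi-likelihood F test gave 15 comparisons with Benjamini-Hochberg FDR under 0.05 over all genes. The SE is the log2 fold change divided by the root of F. The test was also run on simulated counts that held no replicate effect, so that run does not vouch for the test on these data. CPM per kb used the union of exons. The 10 genes were chosen by name. The text names them in every comparison, the 3 called genes with the largest change from each of 2 lists (31 pathway and 25 target genes) in the IL-1β response of Lkb1-/- and in Lkb1-/- against wild-type untreated, checks of the deleted genes, and the gene most like each member. Members and lists were chosen with earlier results of these data known. Alternatives were unstranded counts, RLE and upper quartile scaling, no filter or at least 10 counts in every library, edgeR's newer method, DESeq2 1.42.0, the replicate number as a block, a fit limited to the groups compared, omission of single libraries and, chosen after seeing the data, the use of replicates 2 and 3 alone.

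The labels give replicate numbers 1 to 3 in each group but no batch. Over 11355 genes with a mean log2 CPM above 1, deviations from the group means of libraries with the same number correlated between 0.122 and 0.743 in all 84 pairs (median 0.445). The median for different numbers was -0.259, a sign that centering on the group means fixes in advance. From the same-number values the numbers were taken to pair the libraries, and whether replicate 1 alone gives these values was not tested. This pairing rests on the data alone and on those genes, since over all 17522 genes 15 of the 84 pairs lay under 0.1 (lowest 0.0355). No 2 libraries agreed within sampling noise, and replicate 1 stood apart from replicates 2 and 3 in all 8 groups.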

Additional observations from a re-analysis of the deposited data

Results flagged for a closer look

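Differences between IL-1β responses were flagged where blocking on the replicate number inside each genotype, an alternative chosen after seeing the data, put them past the FDR threshold of 0.05 although edgeR's test with its main settings did not. Between *Lkb1*-/- and wild-type MEFs the *Bcl3* response differed by -0.86 on the log2 scale (FDR 1.3e-06 in that fit) and the *Nfkbiz* response by -0.54 (FDR 0.033). Both were smaller in *Lkb1*-/- MEFs, which began with more of both transcripts. Between clone A1 and *Lkb1*-/- MEFs the differences were -0.46 for *Nfkb2* (FDR 0.00026), -0.56 for *Relb* (FDR 0.0014), -0.48 for *Nfkbia* (FDR 0.02) and -0.64 for *Nfkbie* (FDR 0.0016). Of these genes only *Nfkbia* was called between the untreated groups with the main settings. Its mean was 124 CPM in untreated clone A1 against 69.6 CPM in *Lkb1*-/- MEFs, and 251 against 197 CPM after IL-1β. In the fit with that block 5.72% of all genes were called for the first difference and 1.52% for the second. Without a filter on low counts edgeR's test without a block also passed all 6 (FDR between 2.4e-07 and 0.027), a setting that called 347 and 141 genes for the 2 differences in place of 43 and 5. Of 23 alternatives only 2 called *Nfkbiz*, *Relb* and *Nfkbia*, 3 called *Bcl3* and *Nfkbie*, and 4 called *Nfkb2*, so these differences rest on few settings. Groups of 3 were not tested for single outlying libraries.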

How the results depend on the processing

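Over 2610 values of the 10 genes under alternatives, 2416 stayed on the same side of the threshold (51 of them changed sign and were called in neither fit), 80 fell below it, 114 rose past it and 0 called values reversed. The causes were not tested. Counts of members called moved by over 1.5 times as follows. The genes called among all tested stand in brackets. A fit of only the groups compared gave 3 between the untreated clones (4438 of 15921). It gave 2 for untreated clone A2 against Lkb1-/- (4564 of 16006) and 3 for IL-1β in clone A2 (246 of 16001). In the main fit these 3 comparisons called 5692, 5655 and 995 of 17522 genes. For treated clone A2 against Lkb1-/-, a filter of at least 10 counts gave 5 (5243 of 12755), upper quartile scaling 5 (6120 of 17522) and no filter 6 (5634 of 36796). Replicates 2 and 3 alone, chosen after seeing the data, gave 7 there (38.7%). They gave 7 for untreated clone A1 against Lkb1-/- (40.2%) and 8 for IL-1β in Lkb1-/- (8.79%). For the difference of responses of clone A1 and Lkb1-/-, DESeq2 gave 1 (0.0871%) and no filter 4 (0.383%). For that of Lkb1-/- and wild-type no filter gave 2 (0.943%).

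With the replicate number as a block the counts were 7 for untreated and 8 for treated clone A1 against Lkb1-/-, 6 for treated clone A2 against Lkb1-/-, 8 for IL-1β in Lkb1-/-, 1 for the response difference of Lkb1-/- and wild-type and 2 for that of clone A1 and Lkb1-/-, and with the block within each genotype the last 2 were 2 and 4. Shares of all genes called in these fits are given with the results above, apart from 8603 of 17522 for treated clone A1 against Lkb1-/-. The block ended no call of a member and changed no call beyond those given beside the results.

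Leaving out 1 library gave 5 to 7 calls for treated clone A1 against Lkb1-/-, lowest without A1 replicate 2 (5355 of 17939 genes called). Between the treated clones it gave 4 to 7, lowest without A1 replicate 1 (4884 of 17942). Between the untreated clones it gave 3 to 5, lowest without A1 replicate 2 (4732 of 17946). Treated clone A2 against Lkb1-/- had 3 to 5, highest without A2 replicate 3 (5326 of 17964) or Lkb1-/- replicate 1 (5219 of 17933). Untreated clone A2 against Lkb1-/- had 2 to 4, lowest without A2 replicate 3 (4995 of 17912) or Lkb1-/- replicate 1 (4839 of 17960) or 2 (4613 of 17947). Upper quartile scaling put the median log2 fold change of all genes in Lkb1-/- against wild-type at 0.121 untreated and 0.135 treated, beside 0.0414 and 0.0325 with TMM. Each double knockout group is 1 clone, so clone and genotype cannot be told apart. Wild-type and Lkb1-/- MEFs are separate cell lines, so the same holds for cell line and genotype there. The lowest count of a member was 511, and the effect of depth on the calls was not tested.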
